A study of Mus musculus with 36 samples.

Results

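The genes described here are 10 members of the route by which calcium entry switches on NFAT transcription factors: the store sensor gene Stim1 and the channel gene Orai1, the calcineurin A subunit genes Ppp3ca, Ppp3cb and Ppp3cc, the calcineurin inhibitor genes Rcan1 and Cabin1, and the NFAT genes Nfatc1, Nfatc2 and Nfatc3. They were chosen by name, as rows with exactly these symbols in all 4 deposited expression tables, and all 10 were found once in each table, among 32940 genes in the table of sorted subsets and 56923 in each of the other 3. All 10 had a mean of at least 1 TPM (a transcript level corrected for gene length and library total) in every table, so none was lost to the filter used for testing.

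The study sequenced mRNA of mouse natural killer (NK) cells, in 36 libraries that form 12 groups of 3. The table of sorted subsets holds 18 libraries from CD27-negative, CD11b-positive splenic NK cells of C57BL/6 wild-type mice (WT, B2m+/+) and of mice without B2m (KO, B2m-/-), which lack the light chain of MHC class I. Per the labels, TP cells were positive for Ly49C, Ly49I and NKG2A, SP cells were positive for Ly49I alone, and TN cells were negative for all 3, and each genotype and subset had 3 libraries. The ionomycin table holds 3 libraries of NK cells from WT splenocytes kept for 22 h with vehicle and 3 from splenocytes kept with ionomycin, a calcium ionophore; the NK cells were purified by sorting after the culture, so the other spleen cells met the drug too. The antibody table holds 3 libraries each of splenic NK cells of WT mice kept for 48 h in medium, on plate-bound antibodies to the activating receptors NKp46 and NKG2D, or on a plate-bound pair to NKp46 and DNAM-1. The tumour table holds 3 libraries of CD27-negative, CD11b-positive NK cells from tumours of MC38, a colon carcinoma line of the mouse, made B2m-/-, taken 10 days after 4000000 cells were injected under the skin of C57BL/6 mice. It has no second group. Its labels give the genotype as WT, whereas its columns are named B2MKO and SP, with tumor and a number; the titles do not say whether these names refer to the mice, the injected cells or the sorted subset. The labels give no age or sex of the mice.

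Calcium release from the endoplasmic reticulum is sensed by STIM1, which then opens the ORAI1 channel in the plasma membrane. The calcium that enters binds calmodulin and switches on calcineurin, a phosphatase made of a catalytic A subunit and a regulatory B subunit, and calcineurin removes phosphates from NFAT proteins so that they move to the nucleus. This step acts on the proteins, which mRNA levels do not show. In T cells, NFAT with AP-1 is known for driving cytokine genes, and NFAT without AP-1 for driving genes of anergy and exhaustion. In NK cells the route lies downstream of activating receptors.

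Rcan1 is a member with a textbook link back to NFAT: a shorter transcript from a downstream start is known from other cells as calcineurin-responsive. Both start regions are shown for that reason, as the 250 bases before each start in RefSeq (build GRCm38.p6), with GGAAA, the core that NFAT proteins bind, or its reverse TTTCC, in capitals.
Rcan1 upstream start, chr16:92466170-92466419, minus strand: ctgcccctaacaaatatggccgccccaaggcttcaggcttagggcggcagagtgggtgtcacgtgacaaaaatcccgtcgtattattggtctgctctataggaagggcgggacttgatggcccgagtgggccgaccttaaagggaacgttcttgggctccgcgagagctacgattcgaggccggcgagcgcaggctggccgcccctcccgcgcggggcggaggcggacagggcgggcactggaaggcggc
Rcan1 downstream start, chr16:92400079-92400328, minus strand: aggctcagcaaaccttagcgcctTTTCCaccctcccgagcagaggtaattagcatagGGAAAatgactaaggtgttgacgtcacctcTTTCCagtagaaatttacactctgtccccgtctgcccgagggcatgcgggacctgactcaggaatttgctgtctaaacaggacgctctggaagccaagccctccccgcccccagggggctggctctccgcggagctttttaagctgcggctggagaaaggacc
The windows lie 66091 bases apart. The upstream one holds 24 CG pairs and 0 matches, and the downstream one holds 11 CG pairs and 3 matches, which begin 227, 193 and 163 bases before the start, the first and last as TTTCC. Of 32851 RefSeq windows of this length, 55.6% hold at least 1 match on either strand and 6.39% hold at least 3. Of 10 windows from 7 members that were counted, 5 hold 0 matches; 1 window each of Nfatc2 and Ppp3cb also holds 3, so that number is not particular to Rcan1. A match in these letters is a description and not a binding site. The deposited values are per gene, so the 2 Rcan1 starts share 1 value below.

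In the sorted subsets the members spanned a wide range of levels. Nfatc1 (ENSMUSG00000033016) had a median of 227 TPM over 18 libraries (189.28 to 245.91) and Nfatc3 (ENSMUSG00000031902) one of 166 TPM (137.02 to 199.48). Nfatc2 (ENSMUSG00000027544), the NFAT gene best known from T cells, had a median of 38.7 TPM (29.77 to 45.76), below every library's value for the other 2 NFAT genes. Among the calcineurin A genes, Ppp3cc (ENSMUSG00000022092) was highest at a median of 147 TPM (124.11 to 193.53), followed by Ppp3ca (ENSMUSG00000028161) at 106 TPM (82.17 to 143.88) and Ppp3cb (ENSMUSG00000021816) at 76.3 TPM (54.10 to 97.89). Stim1 (ENSMUSG00000030987) had a median of 94.6 TPM (76.74 to 124.34), while the channel gene Orai1 (ENSMUSG00000049686) had one of 23.9 TPM (15.69 to 35.53). Of the inhibitor genes, Cabin1 (ENSMUSG00000020196) had a median of 62.5 TPM (47.02 to 89.08) and Rcan1 (ENSMUSG00000022951) one of 8.56 TPM (2.42 to 14.66). Of the 12018 genes tested in this table, 93.7% had a lower mean than Nfatc1 and 26.2% a lower mean than Rcan1.

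Depth per library is unknown, because TPM keep no record of it. Between 12290 and 14501 genes were above 0 in a subset library; this was 13904 to 14578 with vehicle and 15157 to 15483 with ionomycin, and 13555 to 14674 in medium and 16107 to 18096 with antibodies. All 8 NK cell markers were above 0 in every group. Trac, the constant part of the T cell receptor alpha chain, had no value above 0 in any of the 36 libraries. The whole list of 8 T cell markers, Trac included, summed to 170 to 260 TPM in the subset table. It summed to 139 to 260 TPM in the ionomycin table, 218 to 443 TPM in the antibody table and 119 to 137 TPM in the tumour table. Other markers differed between the subset groups. In KO TP cells 7 of 7 neutrophil genes were above 0 with a summed level of 61.0 to 218 TPM, against at most 5.85 TPM in the other 5 groups. In the same cells 4 of 4 plasma cell genes summed to 85.3 to 190 TPM, against at most 13.1 TPM. Markers of type 1 innate lymphoid cells summed to 11.4 to 15.7 TPM in WT TP and 17 to 23.3 TPM in KO TP cells. In SP and TN cells they reached at most 7.34 TPM. B cell markers summed to 288 to 331 TPM in WT TN cells, against 169 to 183 TPM in WT TP and 181 to 198 TPM in WT SP cells. In KO mice the B cell sums were 323 to 512 TPM for TP, 203 to 231 TPM for SP and 223 to 241 TPM for TN cells. In the ionomycin table, neutrophil genes summed to 377 TPM in vehicle replicate 3 and 120 TPM in ionomycin replicate 3, and to at most 2.19 TPM in the other 4 libraries. In sorted bulk samples, fewer cells of a type and less RNA per cell cannot be told apart.

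**Figure D1:**
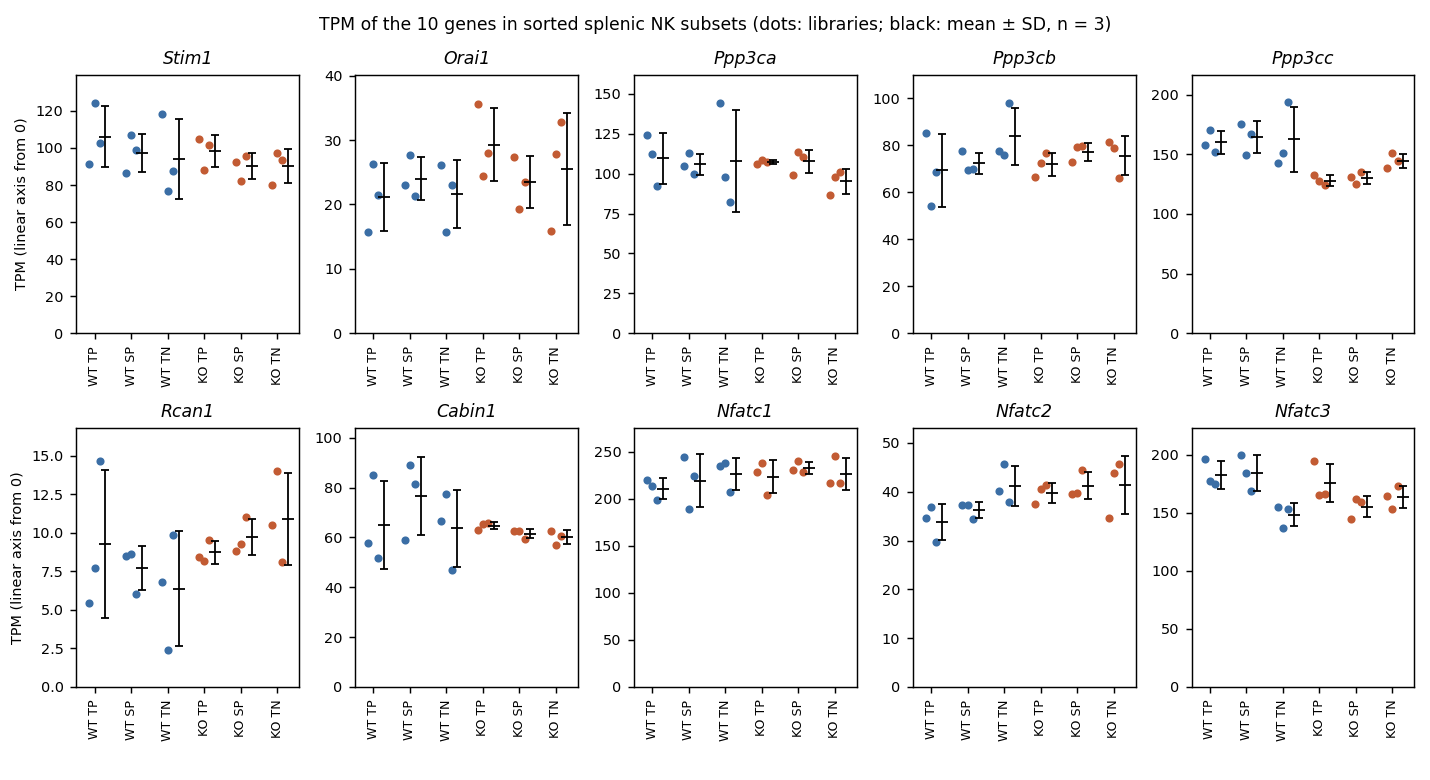
TPM of each member (vertical axis, linear from 0) in the 6 sorted splenic groups, with 1 dot per library and the mean ± SD of 3 libraries in black. The WT and KO groups overlap for most genes. In KO TP and KO SP cells, Ppp3cc lies below and Nfatc2 above all libraries of the matching WT subset. In KO SP cells, Nfatc3 also lies below and Rcan1 above all WT SP libraries.

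No member was called in any comparison of the sorted subsets. Limma, with Benjamini-Hochberg adjustment over all 12018 genes and a call at an adjusted p under 0.05, called 0 of 10 members in WT TN against TP cells, where it called 157 genes (1.31%), and 1 member had an unadjusted p under 0.05, as had 12.5% of all genes. It called 0 of 10 in WT SP against TP cells, beside 0.191% of all genes, and 0 of 10 in WT TN against SP cells, beside 0.383%; 0 and 1 members had an unadjusted p under 0.05, beside 7.71% and 12.1% of all genes. In KO cells it called 0 of 10 for TN against TP (0.524% of all genes), SP against TP (0.200%) and TN against SP (0.0416%), and 0 members had an unadjusted p under 0.05 in these 3, beside 6.43%, 2.93% and 2.77% of all genes. For KO against WT it called 0 of 10 among TP (1.59%), SP (1.35%) and TN cells (0.716%), with 1, 2 and 1 members at an unadjusted p under 0.05, beside 11.8%, 11.7% and 10.5% of all genes. For the difference between genotypes in the TN against TP change it called 0 of 10, beside 0.0250% of all genes, with 0 at an unadjusted p under 0.05 (6.27% of all genes). With calls this rare in the whole table, 0 of 10 is near the background. The share of all genes whose groups do not overlap was not counted, so gaps between groups given below have no background beside them.

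The intervals say how large a change could have been missed. On the log2(TPM + 1) scale, the 95% intervals of Nfatc1 over the 9 comparisons between 2 groups stayed between -0.25 and 0.31, those of Stim1 between -0.51 and 0.33 and those of Ppp3ca between -0.51 and 0.36. Those of Orai1, a gene of lower level, reached from -0.88 to 1.03, and those of Rcan1, the lowest, from -1.34 to 1.63. A doubling of Nfatc1 between these subsets would lie outside its intervals. For Rcan1 this depends on the comparison: a doubling would lie inside the interval of KO against WT TN cells (0 to 1.63). The interval of KO against WT TP cells was narrower (-0.79 to 0.84).

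**Figure D2:**
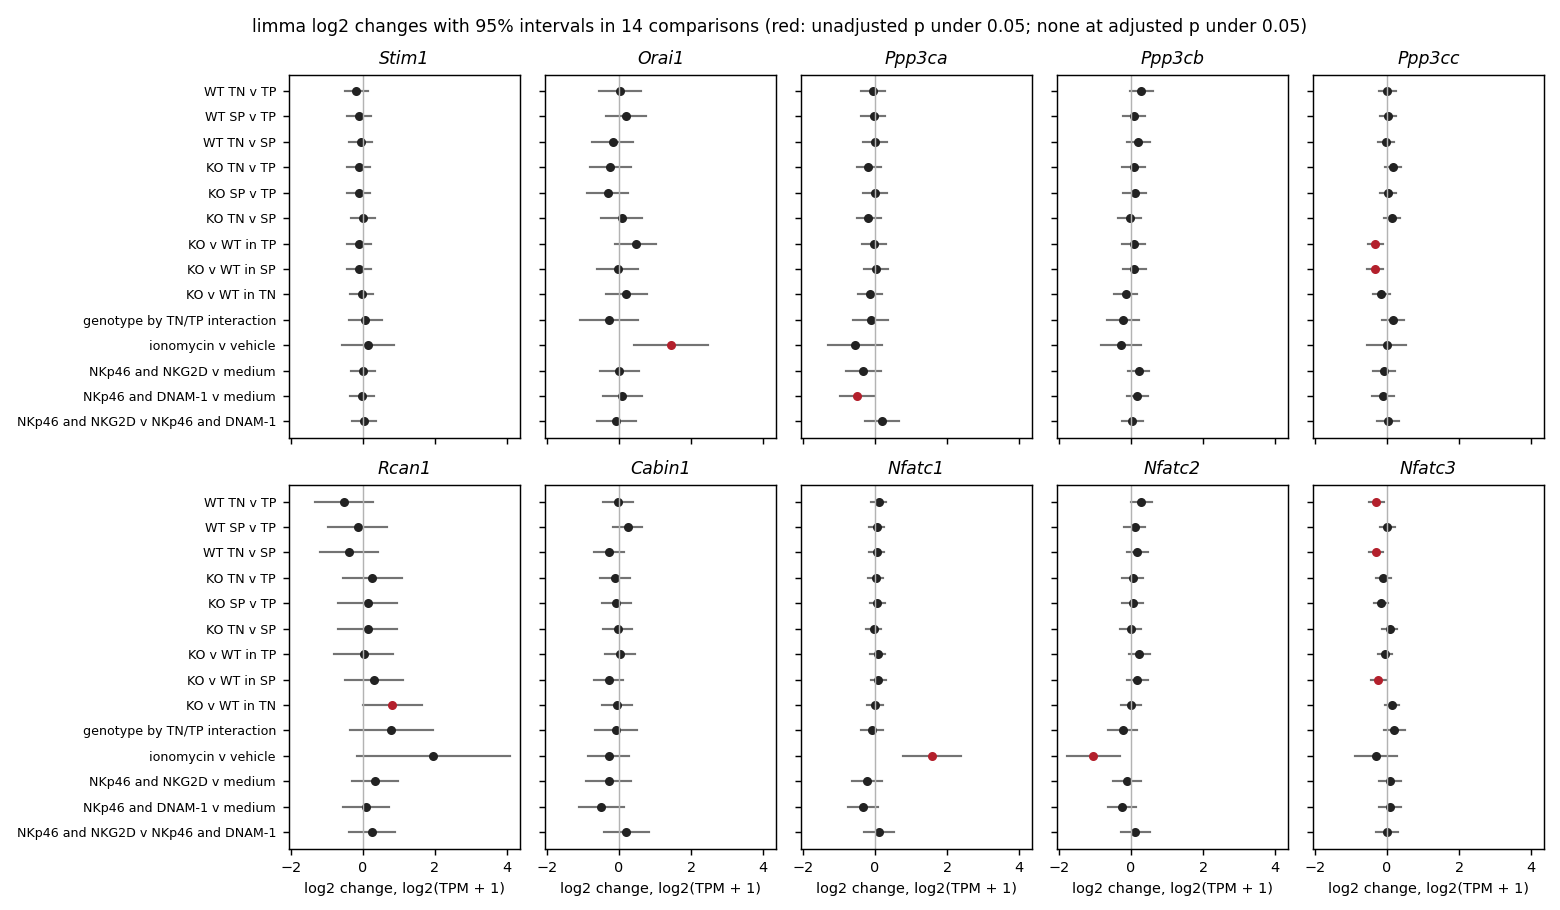
Limma log2 change (horizontal axis, log2(TPM + 1) scale) of each member in each of 14 comparisons, with 95% intervals as lines. Red dots have an unadjusted p under 0.05; the points of the sorted subsets lie between -0.53 and 0.81, both Rcan1, whose lines are the longest, and the ionomycin points of Rcan1, Nfatc1, Orai1 and Nfatc2 sit farthest from 0.

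The sensor and channel genes stood close together across the subsets. Stim1 was at 106 ± 16.7 TPM (SD, n = 3) among WT TP cells, 97.4 ± 10.3 TPM among SP and 94.3 ± 21.5 TPM among TN cells, and at 98.3 ± 8.77, 90.2 ± 7.10 and 90.4 ± 9.15 TPM in the KO counterparts. Its neighbouring groups, ordered by mean, all overlapped. Orai1 was highest in KO TP cells, at 35.5, 24.4 and 28.0 TPM, against 15.7, 26.3 and 21.5 TPM in WT TP cells. These groups overlapped, and the log2 change of 0.46 ± 0.27 (SE) had an adjusted p of 0.532. KO TP cells are also the group with the neutrophil and plasma cell transcripts given above; their part in this value was not tested.

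Ppp3cc, which encodes the gamma isoform of calcineurin A, was the calcineurin gene with the widest gap between genotypes. It was at 158, 170.2 and 151.5 TPM in WT TP and at 132.5, 127.2 and 124.1 TPM in KO TP cells, so the groups did not overlap. Limma gave -0.32 ± 0.11 (SE) on the log2 scale and an adjusted p of 0.185. SP cells gave 175.5, 149.3 and 167.3 TPM in WT and 131.2, 124.8 and 134.9 TPM in KO mice, again without overlap, with a log2 change of -0.33 ± 0.11 and an adjusted p of 0.172. In TN cells the WT libraries stood at 142.9, 151.4 and 193.5 TPM and the KO libraries at 138.8, 150.7 and 143.9 TPM, which overlap (log2 change -0.16 ± 0.11, adjusted p 0.643). The neutrophil markers summed to 61.0 to 218 TPM in KO TP and to at most 5.85 TPM in KO SP cells. B cell markers summed to 169 to 183 TPM in WT TP and 323 to 512 TPM in KO TP cells. For SP cells the B cell sums were 181 to 198 TPM in WT and 203 to 231 TPM in KO mice. TN cells went the other way, at 288 to 331 TPM in WT and 223 to 241 TPM in KO mice. The part of either list in the Ppp3cc values was not tested. None of these Ppp3cc differences passed the test, and none was called in 14 alternative analyses of each comparison. Averaged over the 3 subsets that share a number in the column names, Ppp3cc was at 159, 157 and 171 TPM in WT and at 134 TPM for each of the 3 KO numbers.

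Ppp3ca and Ppp3cb, the alpha and beta isoforms, showed no gap of this kind. Ppp3ca was between 95.1 ± 7.59 TPM (KO TN) and 110 ± 16.0 TPM (WT TP), and WT TN replicate 1 was its highest library at 143.9 TPM, against 97.9 and 82.2 TPM in the other 2. Ppp3cb was between 69.3 ± 15.6 TPM (WT TP) and 83.9 ± 12.2 TPM (WT TN). Of the summed TPM of the 3 isoforms, Ppp3cc made up 47.3 ± 3.90%, 47.9 ± 2.48% and 45.8 ± 6.32% among WT TP, SP and TN cells, and 41.7 ± 1.60%, 41.4 ± 1.99% and 45.9 ± 0.55% in the KO counterparts.

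The inhibitor genes, like most members, spread more widely between WT than between KO libraries. Cabin1, which encodes a calcineurin-binding repressor, was at 57.8, 85.0 and 51.9 TPM in WT TP and at 63.0, 65.5 and 65.7 TPM in KO TP cells. The SD of Cabin1 was 15.4 TPM over the 9 WT libraries and 2.78 TPM over the 9 KO libraries, around means of 68.4 and 62.1 TPM. The SD was larger in WT for every other member but Orai1 (4.33 in WT and 6.16 TPM in KO). For Ppp3ca it was 18.3 and 8.15 TPM, and for Stim1 15.5 and 8.3 TPM. Rcan1, which encodes a protein that binds and restrains calcineurin, was at 6.84, 2.42 and 9.86 TPM in WT TN cells and at 10.5, 14.0 and 8.13 TPM in KO TN cells. These groups overlapped (log2 change 0.81 ± 0.39, SE; adjusted p 0.475). In TP and SP cells the KO minus WT log2 changes of Rcan1 were 0.02 and 0.31, with adjusted p values of 1 and 0.825. The SP groups did not overlap, at 6.06 to 8.65 TPM in WT and 8.83 to 11.03 TPM in KO mice.

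Among the NFAT genes, Nfatc3 came closest to a difference between subsets. In WT mice it was at 196.0, 177.1 and 174.5 TPM for TP, at 199.5, 184.2 and 168.4 TPM for SP and at 155.1, 137.0 and 153.0 TPM for TN cells. The WT TN libraries lay below all 6 others, with a log2 change of -0.30 ± 0.10 (SE) against TP (adjusted p 0.167) and of -0.31 ± 0.10 against SP (adjusted p 0.201). In KO cells Nfatc3 stood at 194.2, 165.7 and 165.9 TPM in TP and at 164.1, 153.5 and 172.7 TPM in TN cells, which overlap, with a log2 change of -0.10 ± 0.10 and an adjusted p of 1. The difference between these 2 changes was 0.20 ± 0.14 (adjusted p 0.863), so the WT and KO changes were not shown to differ. KO SP cells were at 144.7, 162.0 and 159.4 TPM, all below the WT SP libraries, with a log2 change of -0.24 ± 0.10 and an adjusted p of 0.319. B cell markers, given above, were higher without overlap in WT TN than in WT TP and SP cells, and in KO SP than in WT SP cells. Their part in the Nfatc3 values was not tested.

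Nfatc1, the NFAT gene with its own inducible promoter in T cells, was between 211 ± 11.1 TPM (WT TP) and 233 ± 6.42 TPM (KO SP), and each group overlapped the next in order. Nfatc2 was lowest in WT TP cells, at 34.7, 37.0 and 29.8 TPM. It stood at 40.1, 45.8 and 37.9 TPM in WT TN cells, without overlap and with a limma log2 change of 0.28 ± 0.14 (SE, adjusted p 0.424). KO TP cells (37.51 to 41.28 TPM) also lay above WT TP cells, with a log2 change of 0.23 ± 0.14 (adjusted p 0.545). KO SP cells (39.47 to 44.41 TPM) lay above WT SP cells (34.45 to 37.22 TPM), with a log2 change of 0.18 ± 0.14 (adjusted p 0.664). The Nfatc2 values of WT and KO TN cells overlapped. B cell markers, given above, did not overlap between any of the groups compared here for Nfatc2, TN cells included. Their part in the Nfatc2 values was not tested. Nfatc1 made up 49.4 ± 0.60% of the summed NFAT TPM in WT TP and 54.4 ± 2.29% in WT TN cells, Nfatc3 42.7 ± 1.18% and 35.7 ± 2.97%, and Nfatc2 7.91 ± 0.65% and 9.90 ± 0.85%.

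The other genes of the route were read from 5 lists, which were drawn up with earlier results of these data known. Of 16 further store sensor, channel and pump genes tested, Atp2b4, which encodes a pump that moves calcium out of the cell, fell in TN against TP cells of both genotypes: from 131 ± 12.6 to 96.0 ± 2.93 TPM in WT (log2 change -0.44 ± 0.09, adjusted p 0.0259) and from 128 ± 4.13 to 93.9 ± 1.31 TPM in KO cells (-0.44 ± 0.09, adjusted p 0.0446). Both are the single call of the list in those comparisons, where 1.31% and 0.524% of all genes were called. Markers of type 1 innate lymphoid cells, given above, also differed between TP and TN cells of both genotypes. Their part in the Atp2b4 values was not tested. The WT call was kept in 8 of 15 alternative analyses and the KO call in 4 of 15; without WT TN replicate 1, 2 or 3 or WT TP replicate 2 or 3, and without any 1 of the 6 KO libraries, Atp2b4 was not called. The list gave 0 calls in the other 8 comparisons of the subset table. The 7 genes upstream of calcium release, the 9 further calmodulin and calcineurin genes and the 9 other NFAT genes, NFAT kinases and partners that were tested gave 0 calls in all 10.

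Genes that T cell work places under NFAT control gave calls between the genotypes. Of 12 tested genes of this list, 1 fell in KO against WT TP cells (1.59% of all genes called), 3 fell in SP cells (1.35%) and 1 fell in TN cells (0.716%), and 0 rose in any of these; their median log2 changes were -0.22, -0.56 and -0.68, against 0.04, 0.03 and 0.02 over all genes. Tnfrsf9, which encodes the costimulatory receptor 4-1BB, fell in all 3 subsets: in SP cells it was at 81.2, 84.4 and 125.7 TPM in WT and 29.1, 31.6 and 22.2 TPM in KO mice. Its log2 changes were -1.43 (TP, adjusted p 0.00571), -1.76 (SP, adjusted p 0.000906) and -1.16 (TN, adjusted p 0.0471). The SP list also held Nr4a1, from 23.1 ± 3.08 to 7.33 ± 1.54 TPM (-1.54, adjusted p 0.0117), and Egr3, from 10.4 ± 2.90 to 1.98 ± 0.54 TPM (-1.93, adjusted p 0.0304), both genes of early response transcription factors. Leaving out 1 library brought the SP count to between 1 and 3 and the TN count to 0 in each case; the TP count stayed at 1. KO TP cells again carry the neutrophil and plasma cell transcripts, whose part was not tested. Calls of Nr4a1 were lost without KO SP replicate 1 or 2 or WT SP replicate 2, and those of Egr3 also without KO SP replicate 3 or WT SP replicate 3. For WT TN against TP, this list gave 0 calls of 12, with 1 gene at an unadjusted p under 0.05.

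**Figure D3:**
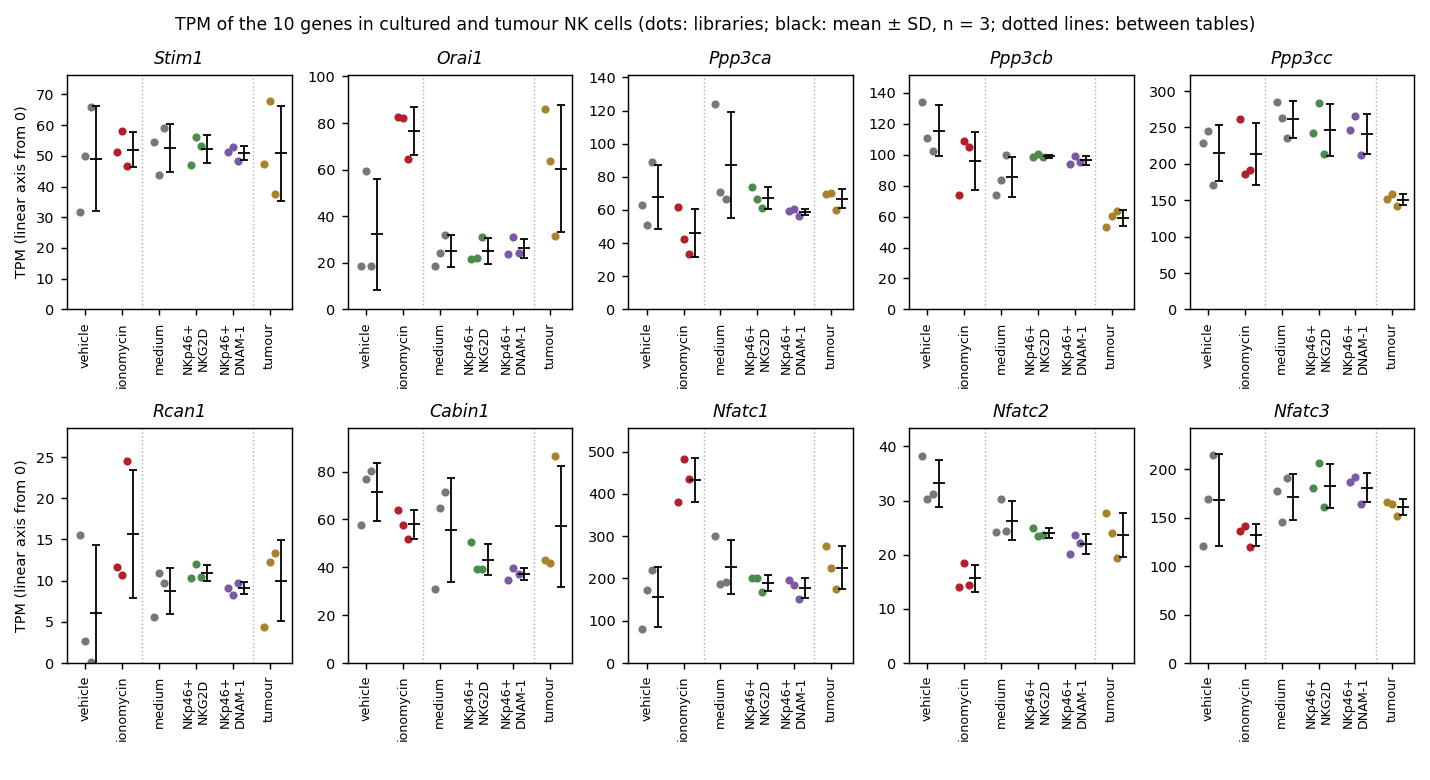
TPM of each member (vertical axis, linear from 0) in cultured and tumour NK cells, with 1 dot per library and the mean ± SD of 3 libraries in black; dotted lines part tables that were normalized separately, across which levels are not compared. Nfatc1 and Orai1 lie higher, and Nfatc2 lower, in every ionomycin library than in every vehicle library. The share of all genes that separate in this way was not counted.

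Ionomycin carries calcium across membranes without a receptor signal. After 22 h the Nfatc1 and Orai1 values were higher and the Nfatc2 values lower in every ionomycin library than in every vehicle library, but none of the 10 passed the test. How many of all genes separate in this way was not counted, so these gaps have no background beside them. Limma called 418 of 14372 genes (2.91%) and 0 of 10 members, with 3 members at an unadjusted p under 0.05, beside 15.1% of all genes, and the median log2 change of the members was -0.14 against 0 over all genes. With 3 libraries a group, no exact permutation p can fall below 0.1. The summed level of the NK markers was 12875, 10455 and 5445 TPM with vehicle and 6939, 5996 and 5087 TPM with ionomycin. These groups overlapped through vehicle replicate 3. The list of 5 dendritic cell markers summed to 10.5 to 14.9 TPM with vehicle and 2.58 to 6.74 TPM with ionomycin, without overlap. Only 1 of the 5, Zbtb46, was above 0 with vehicle, and 2 were with ionomycin, so the sums describe few genes. The number of genes above 0 also differed between the groups without overlap. The part of these differences in the values below was not tested.

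In vehicle libraries Nfatc1 stood at 80.0, 171.7 and 219.0 TPM, and ionomycin libraries held 380.2, 484 and 436 TPM, or 157 ± 70.7 against 433 ± 51.7 TPM. The lowest ionomycin library lay well above the highest vehicle library. The log2 change was 1.57 ± 0.35 (SE), its 95% interval ran from 0.77 to 2.37, and its adjusted p was 0.0537, just short of the threshold. The call turned with the analysis: Nfatc1 was called in 6 of 15 alternatives, and the adjusted p ran from 0.0179 to 0.242. Without vehicle replicate 1, its lowest library, the adjusted p was 0.0194 (log2 change 1.15), and without vehicle replicate 3, the library with most neutrophil transcripts, it was 0.0179 (1.87); without both libraries numbered 3, an analysis chosen after these transcripts were seen, it was 0.113 (1.86).

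Nfatc2 was the opposite case. Its vehicle values were 38.2, 30.3 and 31.2 TPM and its ionomycin values 14.1, 18.6 and 14.3 TPM. The groups did not overlap, and the log2 change was -1.04 ± 0.32 (SE; 95% interval -1.77 to -0.31) with an adjusted p of 0.151, which ran from 0.108 to 0.408 over 15 alternatives. Nfatc3 vehicle values were 121.0, 169.4 and 215.4 TPM and its ionomycin values 136.0, 141.7 and 120.1 TPM; the ionomycin libraries lay within or just below the spread of vehicle, with a log2 change of -0.31 ± 0.25 and an adjusted p of 0.649.

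The share of each NFAT gene in the summed NFAT level was also read within each library, and Nfatc1 was already the largest share in vehicle replicates 2 and 3. Nfatc1 made up 33.5%, 46.2% and 47.0% of the summed NFAT TPM with vehicle and 71.7%, 75.1% and 76.4% with ionomycin. Nfatc3 went the other way, at 47.5 ± 2.70% with vehicle and 22.9 ± 2.42% with ionomycin, and Nfatc2 was at 10.3 ± 4.98% and 2.68 ± 0.18%. No library of either group reached into the range of the other for any of these 3 shares, and the exact permutation test of 3 against 3 allows no p below 0.1. The summed NFAT level was 359 ± 114 TPM with vehicle and 581 ± 57.6 TPM with ionomycin. A share within a library shows unequal levels and not which gene changed.

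**Figure D4:**
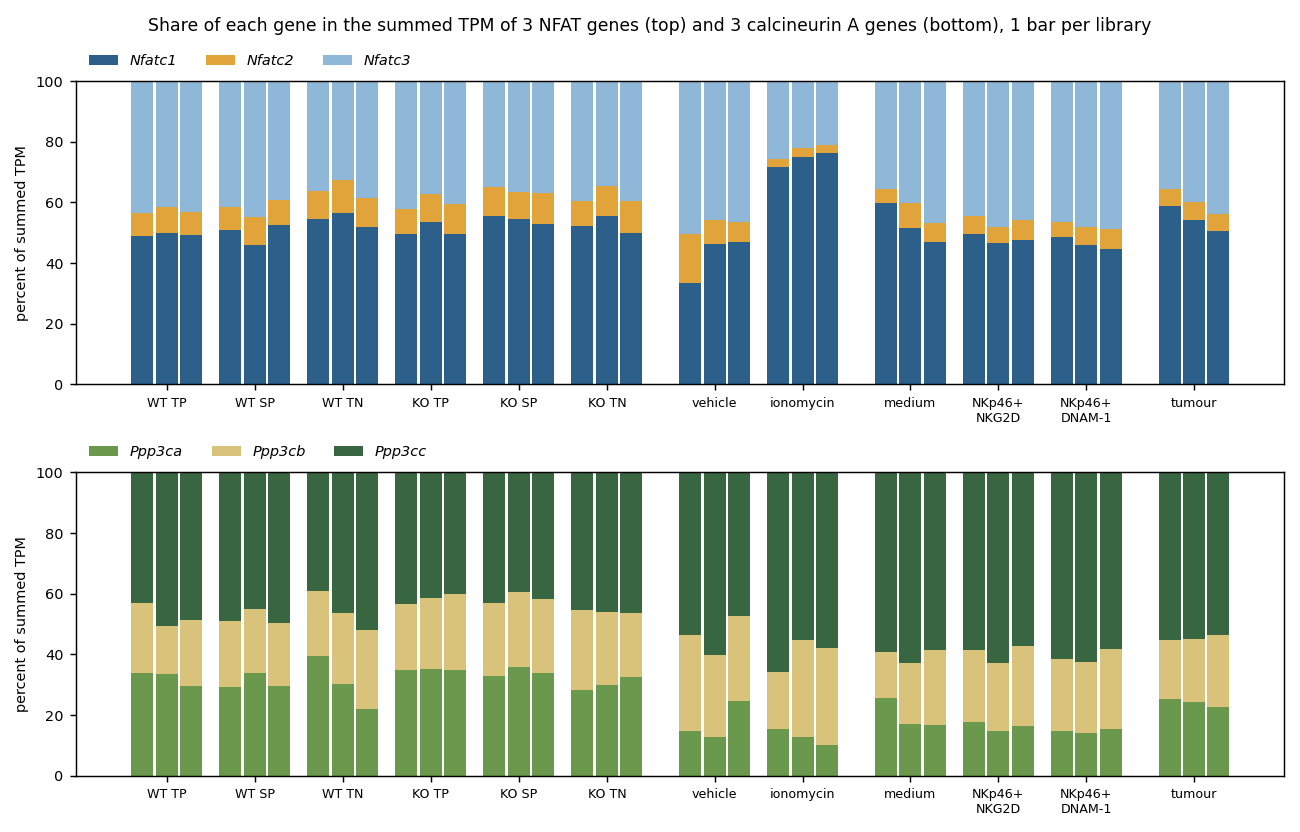
Percent of the summed TPM of Nfatc1, Nfatc2 and Nfatc3 (top) and of Ppp3ca, Ppp3cb and Ppp3cc (bottom) that each gene makes up, with 1 stacked bar per library and groups along the horizontal axis. The Nfatc1 share is 71.7% to 76.4% in the ionomycin libraries and 33.5% to 47.0% in the vehicle libraries.

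Vehicle libraries held Orai1 at 18.4, 59.6 and 18.6 TPM, and ionomycin libraries at 82.8, 82.1 and 64.7 TPM. The groups did not overlap, although vehicle replicate 2 came close to the ionomycin range. The log2 change was 1.44 ± 0.45 (SE; 95% interval 0.41 to 2.46), with an adjusted p of 0.155; without vehicle replicate 2 it was 1.98, and the adjusted p of 0.0405 passed the threshold, the single alternative of 15 in which Orai1 was called. Its partner Stim1 had vehicle values of 31.6, 49.9 and 65.8 TPM and ionomycin values of 51.3, 58.0 and 46.8 TPM, all within the vehicle range (log2 change 0.14 ± 0.32, adjusted p 0.895).

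The calcineurin A genes overlapped between vehicle and ionomycin. Ppp3cc was at 215 ± 38.8 and 213 ± 42.4 TPM (log2 change -0.01 ± 0.23), Ppp3cb at 116 ± 16.5 and 96.0 ± 18.9 TPM (-0.28 ± 0.24) and Ppp3ca at 67.6 ± 19.2 and 45.9 ± 14.5 TPM (-0.56 ± 0.33), at adjusted p values of 0.991, 0.675 and 0.495. Ppp3cc remained the largest share of the 3 isoforms, at 53.7 ± 6.48% with vehicle and 59.7 ± 5.51% with ionomycin.

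Rcan1, whose start regions are shown above, was spread too widely with vehicle to be resolved. The vehicle values were 15.6, 2.66 and 0.08 TPM and the ionomycin values 11.6, 10.7 and 24.6 TPM, so the groups overlapped through vehicle replicate 1. The log2 change was 1.95 ± 0.93 (SE), with a 95% interval from -0.17 to 4.07 and an adjusted p of 0.384. Without vehicle replicate 1 it was 2.97 (adjusted p 0.0696), without vehicle replicate 3 it was 1.00 (adjusted p 0.511) and without both libraries numbered 3 it was 0.64 (adjusted p 0.774). Cabin1 was at 71.6 ± 12.1 TPM with vehicle and 57.9 ± 5.99 TPM with ionomycin, which overlap (log2 change -0.29 ± 0.25, adjusted p 0.663).

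Around the members, genes of the store and upstream lists passed the test under ionomycin, where 2.91% of all genes were called. The single call among the 16 store, channel and pump genes is too few to set apart from that share. Of the 16 store, channel and pump genes, 1 rose and 0 fell: Mcu, the channel by which mitochondria take up calcium, went from 36.9 ± 9.40 to 92.9 ± 13.1 TPM (log2 change 1.33, adjusted p 0.0479), a call kept in 5 of 15 alternatives. Of the 7 genes upstream of calcium release, 1 rose and 2 fell. Zap70, a kinase next to the activating receptor chains, went from 198 ± 38.2 to 760 ± 75.8 TPM (1.95, adjusted p 0.00367), its relative Syk from 110.0 ± 13.3 to 36.3 ± 2.99 TPM (-1.57, adjusted p 0.0128) and Plcg2, a phospholipase that starts calcium release, from 89.7 ± 25.8 to 25.3 ± 2.52 TPM (-1.74, adjusted p 0.0215). The median of these 7 was -0.78. The 9 calmodulin and calcineurin genes and the 11 NFAT kinases and partners tested gave 0 calls, with 3 and 0 at an unadjusted p under 0.05 and medians of -0.04 and -0.31. Without 1 library, the upstream calls numbered 0 (without ionomycin replicate 3) to 3. Syk and Plcg2 were not called without any 1 of the 3 ionomycin libraries or without vehicle replicate 2, and Zap70 was not called without ionomycin replicate 3. Mcu was not called without any 1 of the 3 ionomycin libraries or without vehicle replicate 2; without both libraries numbered 3 the store list and the upstream list gave 0 calls each.

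Of 18 tested genes known from T cells as NFAT-controlled, 5 rose and 0 fell with ionomycin, where 2.91% of all genes were called, and the median log2 change of the 18 was 1.53 against 0 over all genes. Nr4a2 went from 3.21, 29.8 and 39.7 TPM to 1139, 1618 and 1287 TPM (log2 change 6.26, adjusted p 0.00515), and its relative Nr4a3 from 13.3, 13.9 and 17.8 TPM to 473, 621 and 584 TPM (5.13, adjusted p 7.21e-05). Both encode nuclear receptors that T cells express after calcium signals. Lag3, an inhibitory receptor gene, went from 22.3 ± 16.6 to 386 ± 148 TPM (4.35, adjusted p 0.0099). Irf4, a transcription factor gene, was listed at 0 in all 3 vehicle libraries and stood at 38.3, 16.6 and 25.1 TPM with ionomycin. Cytokine genes of the list were not among the calls: Ifng had a log2 change of -0.71 ± 1.67 (adjusted p 0.897), Tnf one of 0.28 ± 0.61 (0.884) and Csf2 one of -2.83 ± 1.07 (0.254). Nr4a3 was called in all 15 alternatives. Nr4a2 was not called without ionomycin replicate 2 or 3, Irf4 without replicate 1 or 3, or Lag3 without any 1 of the 3 ionomycin libraries, and the count for the list ran from 1 (without ionomycin replicate 3) to 9 (without vehicle replicate 3) and was 3 without both libraries numbered 3.

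With plate-bound antibodies no member passed the test. Limma called 59 of 13689 genes (0.431%) for NKp46 and NKG2D antibodies against medium and 107 genes (0.782%) for NKp46 and DNAM-1 antibodies, and 0 of 10 members in each, with 0 and 1 members at an unadjusted p under 0.05, beside 15.1% and 18.0% of all genes. Both comparisons use the same 3 medium libraries. Between the 2 antibody pairs it called 2 genes (0.0146%) and 0 of 10 members, with 0 at an unadjusted p under 0.05 (1.22% of all genes). In 6 of the 9 antibody libraries the title and the table column name different groups; the column names, which carry the values, were followed.

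Nfatc1 stood at 299.7, 187.5 and 192.4 TPM in medium, at 201.0, 201.2 and 167.4 TPM with NKp46 and NKG2D antibodies and at 196.4, 184.7 and 150.5 TPM with NKp46 and DNAM-1 antibodies. Medium replicate 1 lay above all others and the rest overlapped; the log2 changes were -0.22 ± 0.19 (SE) and -0.33 ± 0.19, with adjusted p values of 0.594 and 0.388. Nfatc2 was at 26.3 ± 3.52 TPM in medium and 24.0 ± 0.89 and 22.0 ± 1.78 TPM with the antibody pairs, and Nfatc3 at 172 ± 23.5, 183 ± 22.9 and 181 ± 15.3 TPM. The Nfatc1 share of summed NFAT TPM was 52.8 ± 6.39% in medium and 47.9 ± 1.45% and 46.5 ± 1.97% with the antibody pairs.

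Ppp3ca was the member with the lowest p in these comparisons. It stood at 124.2, 71.0 and 66.6 TPM in medium and at 59.4, 60.4 and 56.6 TPM with NKp46 and DNAM-1 antibodies, without overlap, with a log2 change of -0.50 ± 0.22 (SE) and an adjusted p of 0.26. With NKp46 and NKG2D antibodies it was at 74.1, 66.5 and 61.3 TPM, which overlaps medium (-0.32 ± 0.22, adjusted p 0.516). Ppp3cc, again the largest isoform share at 60.2 ± 2.41% in medium, was at 261 ± 25.1 TPM there and 247 ± 35.4 and 241 ± 27.2 TPM with the antibody pairs, and Ppp3cb was at 85.6 ± 13.0, 99.0 ± 1.16 and 96.3 ± 2.71 TPM. Stim1 (52.4 ± 7.86, 52.1 ± 4.51 and 50.9 ± 2.33 TPM) and Orai1 (25.1 ± 6.70, 25.0 ± 5.42 and 26.2 ± 4.06 TPM) had nearly equal means in all 3 groups. Rcan1 was at 8.74 ± 2.83, 10.9 ± 0.96 and 9.08 ± 0.73 TPM, and Cabin1 at 30.9, 64.9 and 71.3 TPM in medium against 37.1 ± 2.41 TPM with NKp46 and DNAM-1 antibodies (-0.49 ± 0.28, adjusted p 0.397). Without medium replicate 1, the lowest medium library for Cabin1, its log2 change was -0.86 and its adjusted p 0.0592. Over 16 alternatives, the Ppp3ca change with this pair ran from -0.67 to -0.22, with adjusted p values from 0.107 to 0.635. The 95% intervals of the 10 members against medium stayed between -1.11 (Cabin1) and 0.97 (Rcan1).

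Single genes of the NFAT-controlled list passed the test with antibodies, more of them downwards than upwards. Of 17 genes tested, 2 rose, 7 fell and 8 were not called with NKp46 and NKG2D antibodies (0.431% of all genes called), and 2 rose, 6 fell and 9 were not called with NKp46 and DNAM-1 antibodies (0.782%); the medians were -0.16 and -0.20, against -0.04 over all genes in both. With the first pair Lag3 went from 9.16 ± 0.54 to 72.3 ± 21.9 TPM (log2 change 2.81, adjusted p 0.000596), Tnf from 42.0 ± 9.57 to 6.08 ± 3.78 TPM (-2.70, adjusted p 0.0197), Nr4a1 from 595 ± 106 to 95.9 ± 22.2 TPM (-2.63, adjusted p 0.000596) and Egr2 from 412 ± 103 to 66.3 ± 4.62 TPM (-2.59, adjusted p 0.000735). With the second pair Nr4a1 stood at 83.2 ± 19.7 TPM (-2.84, adjusted p 0.000519), Lag3 at 64.2 ± 16.1 TPM (2.66, adjusted p 0.00101), Egr2 at 69.2 ± 20.6 TPM (-2.58, adjusted p 0.00119) and Egr3 at 90.8 ± 18.5 TPM, against 374 ± 93.2 TPM in medium (-2.02, adjusted p 0.00133). Tnf was not called without NKp46 and NKG2D replicate 1 or 2 or without medium replicate 1. With groups taken from the titles in place of the column names, 0 of 17 were called for either pair. The other 4 lists gave 0 calls for both pairs, with between 0 and 5 of their genes at an unadjusted p under 0.05. Markers of type 1 innate lymphoid cells moved with these groups, 4 of 4 above 0 with a summed level of 37.4 to 48.5 TPM in medium and 10.9 to 16.7 TPM with antibodies, as did the number of genes above 0; their part in the list's values was not tested.

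**Figure D5:**
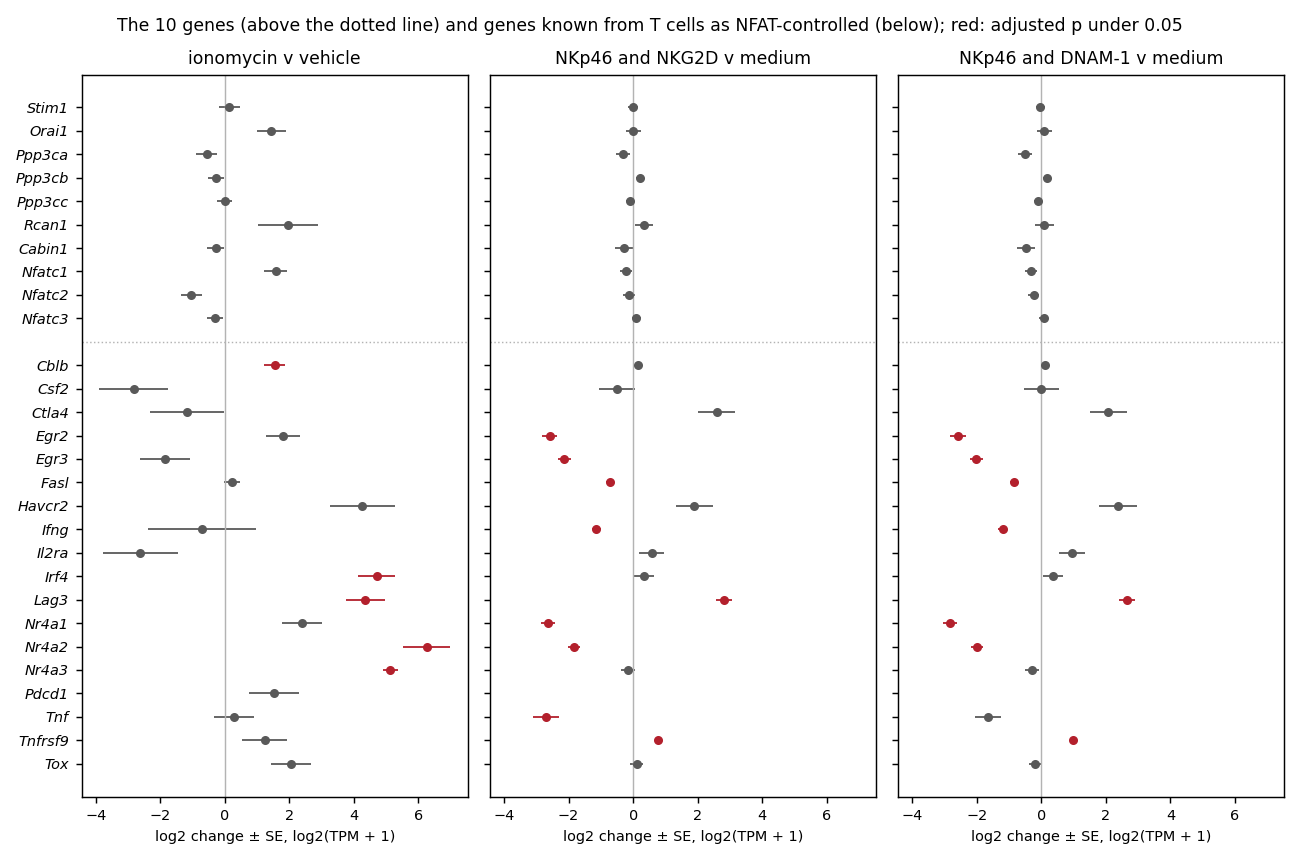
Limma log2 changes ± SE (horizontal axis, log2(TPM + 1) scale) of the 10 members above the dotted line and of the tested genes known from T cells as NFAT-controlled below it, in 3 comparisons. Red dots have an adjusted p under 0.05: none lies above the line, 5 lie below it for ionomycin, all to the right, and 9 and 8 for the antibody pairs.

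In tumour NK cells the members are given as levels alone. Nfatc1 was at 276.9, 223.9 and 174.8 TPM, Nfatc3 at 166.8, 164.4 and 152.0 TPM and Nfatc2 at 27.6, 24.0 and 19.4 TPM, so that Nfatc1 made up 54.5 ± 4.13% of the NFAT sum. Ppp3cc was at 151 ± 7.78 TPM, or 54.5 ± 0.88% of the calcineurin A sum, Ppp3ca at 66.6 ± 5.76 TPM and Ppp3cb at 59.1 ± 5.38 TPM. Orai1 spread from 31.7 to 85.97 TPM with 63.6 TPM between, Stim1 stood at 47.2, 67.7 and 37.4 TPM, Cabin1 at 43.1, 41.8 and 86.4 TPM and Rcan1 at 4.37, 12.3 and 13.4 TPM. Of the epithelial and stromal list, which summed to 31.9 to 925 TPM in these libraries, Col3a1, a collagen gene of stromal cells, made up 31 to 910 TPM, while the epithelial genes Krt18 and Krt19 were listed at 0 and Krt8 and Epcam reached at most 1.21 and 1.5 TPM. Red cell genes summed to 0 to 335 TPM, and all 7 neutrophil genes were listed at 0; the part of other cells in these levels was not tested. As in the other 3 tables, Nfatc1 had the highest mean of the NFAT genes and Ppp3cc the highest of the calcineurin A genes in these libraries, with 2 exceptions: Nfatc3 had a higher mean than Nfatc1 with vehicle (169 against 157 TPM) and with NKp46 and DNAM-1 antibodies (181 against 177 TPM).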

How the data were processed

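RNA sequencing gave gene levels in 36 libraries. The deposited values are TPM per gene, made by the authors; the submitters' processing notes name STAR, RSEM and GRCm39, without versions. TPM divide reads by gene length and scale each library to 1 total, so depth is unknown and precision rests on 3 libraries a group. In the ionomycin, antibody and tumour tables the listed genes summed to 1000000 TPM per library. In the subset table, which lists fewer genes, they summed to 934292 to 948786 TPM. The labels do not say that all libraries came from separate mice, so p-values measure the spread between these libraries. The libraries of a table share 1 batch date, and each comparison stayed within a table.

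Limma 3.58.1 in R 4.3.3 fitted group means to log2(TPM + 1) for genes that averaged 1 TPM or more in a table, with moderated variances and an intensity trend, and 14 comparisons were made, each two-sided and adjusted by Benjamini-Hochberg over all its genes; the threshold for a call was an adjusted p of 0.05. A change on this scale understates that of low genes. The procedure was checked on simulated data. Levels, shares and plots came from Python 3.11.15 with pandas 2.3.3 and matplotlib 3.10.9. Sequences are from RefSeq; the windows of Nfatc1, Ppp3ca and Ppp3cc were not used here.

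The members and gene lists were chosen with earlier results of these data known. All members are named; of each list, up to 4 called genes with the largest change per comparison are named, and the 3 uncalled cytokine genes were added after their values were seen. Markers of 10 cell types were read: in the subset table, T cell markers summed to 170 to 260 TPM, B cell markers to 169 to 512, macrophage to 4.64 to 58.2, dendritic cell to 2.82 to 6.77, red cell to 0 to 68.8, epithelial and stromal to 0 to 6.38 and type 1 innate lymphoid to 1.62 to 23.3. Alternatives changed the pseudocount, the filter, the scaling, the variance trend, the groups fitted, the block and the libraries kept.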

Additional observations from a re-analysis of the deposited data

Results flagged for a closer look

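The Cabin1 values of SP minus TP cells had opposite signs in the 2 genotypes. With libraries joined by the number in the column names, SP minus TP was 1.36, 4.10 and 29.6 TPM in WT and -0.57, -2.81 and -6.19 TPM in KO mice, so every WT pair was higher in SP cells and every KO pair lower. Within a genotype, limma did not call Cabin1 in SP against TP cells: the log2 change was 0.25 in WT (adjusted p 0.79) and -0.07 in KO cells (adjusted p 1). The difference between the genotypes in this change was not tested, and the joining rests on the column names alone. This sign pattern was searched for in all 10 members and every pair of subsets, and only this case was found. How many such cases a search of this size gives without any difference was not counted. The smallest differences, 1.36 and -0.57 TPM, are slight beside means of 64.9 TPM in WT TP and 64.7 TPM in KO TP cells.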

How the results depend on the processing

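Of 216 alternative analyses over the 14 comparisons, 209 called 0 members and 7 called 1, all 7 in the ionomycin comparison. There the count went from 0 to 1 with a filter at a mean of 5 TPM (Nfatc1, adjusted p 0.0452), with quantile normalization (Nfatc1, 0.0261) and with median-of-ratios rescaling (Nfatc1, 0.0248), and ran from 0 to 1 when 1 library was left out (Nfatc1 without vehicle replicate 1 or 3, Orai1 without vehicle replicate 2); the cause was not tested. With the replicate block the count was 1 (Nfatc1, log2 change 1.57, adjusted p 0.0271). Same-numbered vehicle and ionomycin libraries deviated together with a mean correlation of 0.062 (lowest 0.017) over 3 pairs, and 5 of 6 libraries correlated best with their own number, a hint from the data and not from the design. The mean was 0.0639 over 9 antibody pairs (7 of 9 libraries) and 0.0104 over 18 subset pairs (11 of 18 libraries); the replicate block changed no member's call there. With the block the list of NFAT-controlled genes gave 9 calls under ionomycin in place of 5, the calmodulin and calcineurin list 2 and the store and channel list 1 for each antibody pair in place of 0, and the upstream list 2 for WT TN against TP in place of 0. With antibody groups from the titles, Lag3 reversed to -0.07 for NKp46 and NKG2D, and Ifng, which fell with both pairs, reversed to 0.09 (NKp46 and NKG2D) and 0.21 (NKp46 and DNAM-1). Precision is lowest for Rcan1 and Orai1, the members with the lowest levels and the widest intervals in the subset comparisons; depth is unknown.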
